A study of Arabidopsis thaliana with 6 samples.

Results

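The comparison of high with ambient carbon dioxide (CO2) in medium light rests on 2 of the 6 arrays of a study of Arabidopsis thaliana rosettes. Its members were taken by their titles, the array titled with medium light and high CO2 and the array titled with medium light and ambient CO2. The series title names the genetic basis of changes in the number of stomata at raised CO2. Each of 3 light levels was combined with each of 2 CO2 levels, and each combination was measured once on an ATH1 array, a short-oligonucleotide array of 22810 probe sets. The other 4 arrays, from low and from high light, serve here to place the medium-light difference along the light response. With 1 array for each condition there is no replicate check, so no test was made and no p-value is given.

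All plants were Col-0, the standard laboratory accession, from stock N1092. They were grown in compost treated with the insecticide Intercept, at 21 degrees C, 50 to 60% humidity and 10 h of light in each day, after 3 days of stratification at 4 degrees C. Total RNA came from the rosette centre up to leaf 11 at growth stages 3.20 to 3.50. Nothing in the labels says how many plants went into a sample. The atmosphere entries of both medium-light samples match their titles, normal air for ambient CO2 and elevated carbon dioxide for high CO2. For the high-light array titled high CO2 the atmosphere entry reads normal, which touches every value below that uses that array. Neither the intensity of each light level nor the CO2 concentration of each atmosphere is stated in these sources.

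Leaves take up CO2 through stomata, pores between pairs of guard cells, and fix it in the Calvin-Benson cycle with energy captured by the photosystems. Light and CO2 both set how much sugar a leaf makes, part of which is stored as starch by day and broken down at night. Sugar level, light and the circadian clock are each known to change the transcript levels of many leaf genes.

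Values are array signals on a linear scale, each array scaled to the same trimmed mean of 100. Differences are log2 of the high-CO2 signal minus log2 of the ambient signal, with signals under 20 first set to 20, so that 1 on this scale is a 2-fold difference. Counts were made over the 12357 of 22746 probe sets whose brighter medium-light signal was at least 40, of which 6625 carried 1 gene. Median signals were 41.8 on the ambient and 43.2 on the high-CO2 array. The counted differences had a median of 0.01 and an SD of 0.38 across probe sets. Their central 95% ran from -0.72 to 0.83, and from -0.59 to 0.74 among the 1718 probe sets with a brighter signal of at least 400.

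The tissue markers given here are 2 of 10 listed for leaf mesophyll, 1 of 17 for meristem and young leaf and 1 of 18 for root. Those of mesophyll were bright on both arrays. RCA, the activase of Rubisco, had a signal of 4532.6 in ambient and 4800.1 in high CO2. SBPASE, a Calvin-Benson cycle enzyme, had 2907.7 and 2543.9. The stem cell peptide gene CLV3 had 1.4 and 2.0 and the root hair expansin gene EXPA7 had 22.4 and 18.4. These single meristem and root markers were thus at or near the floor. The control probe set for 25S ribosomal RNA set the arrays apart, with 397.7 on the medium-light ambient array, 2286.5 on the medium-light high-CO2 array and 840.4 to 2263.6 on the other 4. The 9 hybridisation controls were all higher on the medium-light high-CO2 array, by a median of 0.23. The 3′ to 5′ ratio of the GAPDH controls was 1.304 in ambient and 1.129 in high CO2, and that of the actin controls 1.857 and 1.797. The part of these differences in the results below was not tested.

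In medium light 197 probe sets were at least 2-fold higher in high than in ambient CO2, which is 1.59% of those counted. Another 114 were at least 2-fold lower (0.923%), so that 311 in all differed by that much (2.52%). Of the 197 that were higher, 88 carried 1 gene, and of the 114 that were lower, 53 did. In 60 of the 197 and 26 of the 114 the dimmer signal was at or below the floor, which makes the fold a lower bound. Most of the larger differences lay at low signal, with 123 of the 197 and 67 of the 114 under a brighter signal of 100. Of all counted probe sets 5470 lay there, with 2.25% past 2-fold higher and 1.22% lower. These shares were 1.04% and 0.81% at signals of 100 to 400, and 1.16% and 0.291% at 400 and over. In the same count for the other light levels, low light had 69 probe sets higher (0.569%) and 115 lower (0.949%) of 12116, or 1.52% in all. High light had 129 higher (1.04%) and 317 lower (2.56%) of 12382, or 3.6% in all.

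**Figure D1:**
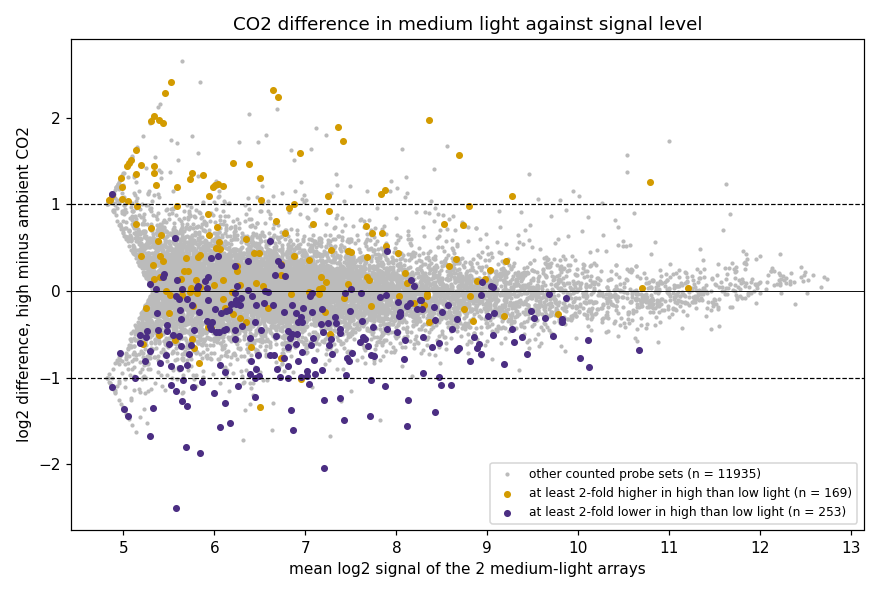
Each point is 1 of the 12357 counted probe sets, placed by the mean log2 signal of the 2 medium-light arrays and by its log2 difference between high and ambient CO2. Dashed lines mark 2-fold. The 169 probe sets raised by light on the other 4 arrays (amber) lie mostly above 0, with a median of 0.39, and the 253 lowered by light (purple) mostly below it, with a median of -0.48.

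The largest differences among brighter genes are described first. Named here are the 25 highest and the 25 lowest differences among probe sets with 1 gene and a brighter signal of at least 100. The 25 rises ran from 2.07-fold to 3.49-fold, so all were past 2-fold. The 25 falls ran from -2.50 to -0.945, and 19 of them were past 2-fold. Most of these genes are listed by locus number alone in the gene table, so they are given here by number with no role.

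AT4G16146 headed the rises. Its signal was 80.1 in ambient and 279.6 in high CO2 in medium light, 125.3 and 207.1 in low light, and 513.0 and 405.6 in high light. The medium-light ambient array was thus the lowest of the 6, and the 3.49-fold difference in medium light stood beside log2 differences of 0.72 in low and -0.34 in high light. AT4G38550 had 50.7 and 176.8 in medium light, 136.6 and 246.2 in low light, and 235.9 and 373.7 in high light, also a 3.49-fold medium-light difference. Its probe set is of a type that can match several transcripts. AT2G21130 had 93.6 and 309.4, against 150.2 and 236.7 in low light and 525.4 and 490.8 in high light, a difference of 1.72. AT1G35710 had 49.0 and 161.3, against 160.3 and 273.2 in high light, also a difference of 1.72, beside 0.55 in low and 0.77 in high light. For these 4 genes the medium-light ambient signal was below those of all the other arrays, and the medium-light high-CO2 signal lay within the range of the low- and high-light arrays.

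AT5G55450 was past 2-fold at all 3 light levels. Its signal was 159.1 in ambient and 318.3 in high CO2 in low light, 239.1 and 710.8 in medium light, and 619.9 and 1286.7 in high light. The medium-light difference was 1.57 (2.97-fold), and the signal was higher at each step of light in both CO2 series. LCR69, which encodes the plant defensin PDF2.2, an antimicrobial cysteine-rich peptide, had 839.1 and 1443.7 in low light, 1143.0 and 2721.3 in medium light, and 2724.3 and 3285.4 in high light. Its difference was 1.25 (2.38-fold) in medium light, 0.78 in low and 0.27 in high light, so high CO2 was above ambient at each light level. AT1G53035 had 44.4 and 123.0 in medium light, with 43.4 and 66.7 in low light and 160.5 and 167.1 in high light, a difference of 1.47. Its medium-light signal lay close to low light in ambient CO2 and closer to high light in high CO2.

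The brightest of the named rises was AT3G22240, with 2052.0 and 4812.3 in medium light, 4395.5 and 5995.5 in low light, and 4839.3 and 5614.1 in high light. Its difference was 1.23, and the ambient medium-light array alone was low. PDC2, a pyruvate decarboxylase of ethanolic fermentation, had 105.0 and 230.4 in medium light, a difference of 1.13. It was 251.9 and 207.1 in low light and 232.7 and 593.8 in high light, so the difference was -0.28 in low and 1.35 in high light. AT5G62360 had 107.0 and 248.8 in medium light, 127.7 and 299.7 in low light, and 182.5 and 281.9 in high light, with differences of 1.22, 1.23 and 0.63.

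AT2G47890 and AT2G47880, which lie close together with 1 gene between them, were both among the rises. AT2G47890 had 60.2 and 139.7 in medium light (1.21), 107.8 and 129.1 in low light, and 159.7 and 151.4 in high light. AT2G47880 had 57.0 and 119.9 in medium light (1.07), 65.6 and 126.9 in low light, and 189.1 and 170.1 in high light. The other named rises not described elsewhere were AT1G52770 (1.23), AT4G17670 (1.21), AT5G39410 (1.16), AT1G55450 (1.16), AT1G19960 (1.15), AT5G35735 (1.13), AT4G30650 (1.09), AT4G08850 (1.08), AT4G17140 (1.05) and AT3G53400 (1.05).

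**Figure D2:**
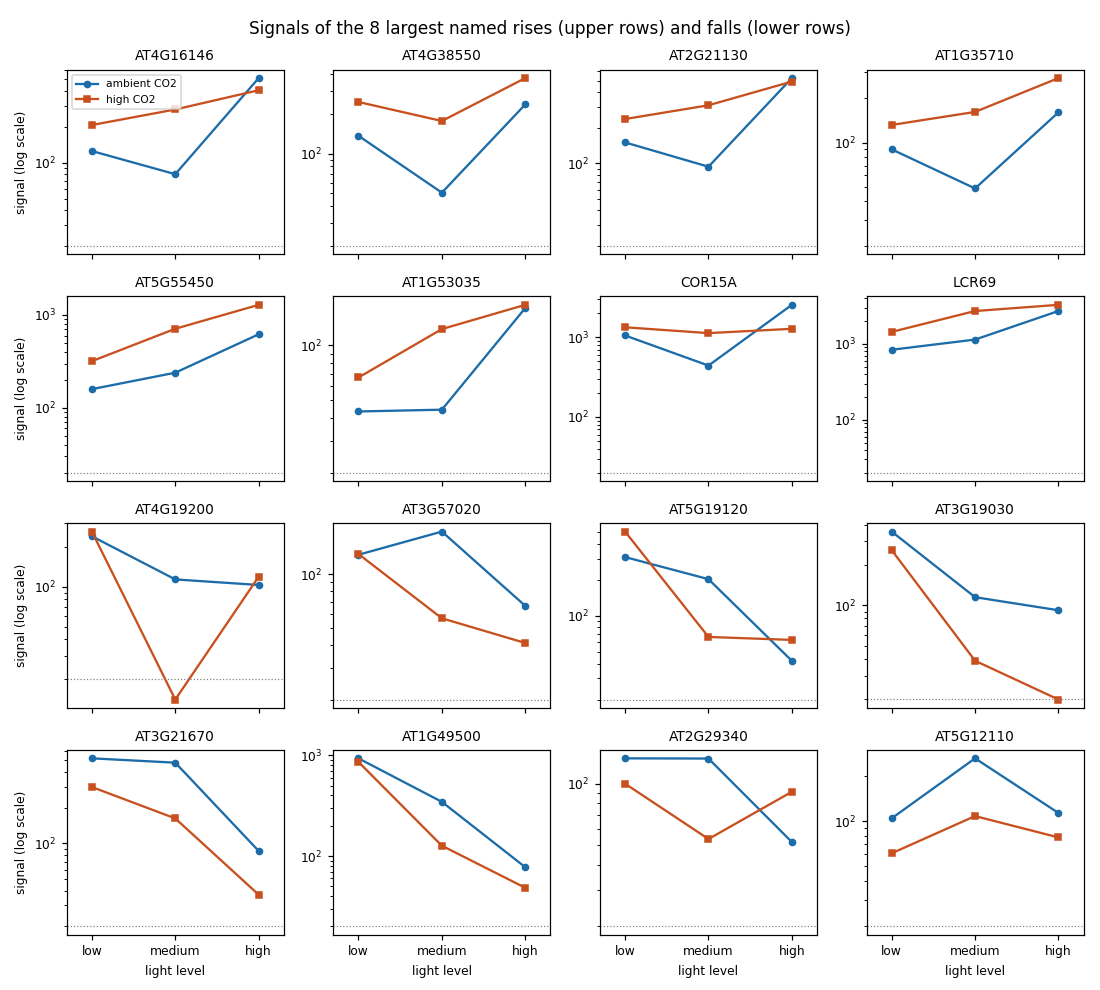
Signals on a log scale are plotted against light level for the 8 largest named rises (upper 2 rows) and falls (lower 2 rows), blue circles for ambient CO2 and orange squares for high CO2, each point being 1 array. The dotted line is the floor of 20. In AT4G16146, AT4G38550, AT2G21130, AT1G35710 and COR15A the medium-light ambient point is the lowest of the 6, while in AT3G21670 and AT1G49500 the signals fall with light at both CO2 levels and the high-CO2 point lies lower.

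AT4G19200 had the largest fall, and it rests on 1 array. Its signal was 113.2 in ambient and 14.1 in high CO2 in medium light, while the other arrays had 239.3 and 259.5 in low light and 102.8 and 118.7 in high light. The high-CO2 signal is below the floor, so the fall was at least 5.66-fold (-2.50), and the differences were 0.12 in low and 0.21 in high light. With signals under 50 set to 50 it was -1.18.

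AT3G21670 (NPF6.4), a member of the nitrate and peptide transporter family, was lower in high CO2 at every light level. Its signal was 519.4 in ambient and 297.8 in high CO2 in low light, 477.6 and 162.0 in medium light, and 86.2 and 36.9 in high light. The differences were -0.80, -1.56 (2.95-fold lower) and -1.22. Ambient medium light was thus close to low light, and the signal fell with light in both CO2 series. AT1G49500 also fell with light, from 936.3 and 862.7 in low light through 345.6 and 126.6 in medium light to 77.4 and 48.3 in high light. Its CO2 difference was -0.12, -1.45 and -0.68 in that order.

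AT3G19030 had 354.6 and 258.2 in low light, 115.1 and 38.7 in medium light, and 92.0 and 19.9 in high light, with differences of -0.46, -1.57 and -2.20. AT1G13650 had 271.9 and 162.4, then 255.9 and 108.5, then 28.0 and 10.7, with a medium-light difference of -1.24. AT4G33666 had 566.6 and 491.6, then 433.3 and 181.1, then 115.1 and 112.7, with a medium-light difference of -1.26. All 3 had lower signals at each step of light in both CO2 series. Against the low- and high-light means over both CO2 levels, the high-CO2 signal of medium light lay nearer to high light than the ambient signal in each. AT5G19120 fell with light too, from 310.2 and 506.6 to 42.1 and 63.0, with 202.8 and 66.7 in medium light. Its CO2 difference was -1.60 in medium light but 0.71 in low and 0.58 in high light.

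A second kind of fall had a high ambient signal. AT5G12110 had 261.2 and 108.0 in medium light, against 104.3 and 61.1 in low light and 113.2 and 77.9 in high light. Its difference was -1.27, and the medium-light ambient array was the highest of the 6. AT3G57020 had 172.4 and 56.7 in medium light, 128.1 and 129.3 in low light, and 66.5 and 41.3 in high light (-1.60). Other falls had a low high-CO2 signal. CCS, the copper chaperone of superoxide dismutase, had 114.8 and 54.8 in medium light, 79.8 and 159.0 in low light, and 92.1 and 88.2 in high light. Its difference was -1.07 in medium and 0.99 in low light, and its medium-light high-CO2 signal was the lowest of the 6. The remaining named falls past 2-fold were AT2G29340 (-1.31), AT1G61350 (-1.21), AT1G55960 (-1.16), AT5G65880 (-1.12), AT2G39960 (-1.11), AT5G53150 (-1.06), AT2G43535 (-1.05), SWEET17 and AT1G62510 (-1.03). AT2G20670, AT3G28220, AT5G26270, AT2G30600, AT5G63380 and AT1G19450 lay between -0.996 and -0.945.

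The medium-light differences were set beside those at the other light levels, which use other arrays. Of the 197 rises, 148 (75.1%) were also above 0 in low light and 122 (61.9%) in high light, where the shares over all counted probe sets were 48.7% and 54.7%. Their median difference was 0.38 in low and 0.17 in high light. Past 2-fold in the same direction were 31 in low light (15.7%, against 0.453% of all counted), 25 in high light (12.7%, against 0.664%) and 11 in both (5.58%, against 0.097%). Of the 114 falls, 82 (71.9%) were below 0 in low light and 58 (50.9%) in high light, beside 50.8% and 44.8% over all counted. Their median was -0.28 in low and -0.02 in high light, with 10 past 2-fold the same way in low light (8.77%, against 0.753%), 9 in high light (7.89%, against 1.67%) and 3 in both (2.63%, against 0.097%). Over all 12357 probe sets the medium-light difference had a Pearson r of 0.23 (Spearman rho 0.16) with that in low light and 0.10 (0.03) with that in high light. Probe sets are not independent replicates, and these correlations are descriptions that share no array. Most medium-light differences were thus under 2-fold elsewhere, and the same sign was more frequent in low than in high light.

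Of the 25 named rises, 22 had the same sign in low light, 16 in high light and 13 in both. Over all counted probe sets 48.7%, 54.7% and 29.3% were above 0 in low light, high light and both. Of the 25 named falls, 16 had the same sign in low light, 14 in high light and 11 in both. The shares below 0 over all counted were 50.8%, 44.8% and 25.4%. Past 2-fold in the same direction in low light were 3 of the rises and 2 of the falls (0.453% and 0.753% over all counted). In high light there were 2 of each (0.664% and 1.67%).

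The rises were further described by which of the medium-light arrays lay outside the range of the other 4. This comparison was chosen after the values were seen, and the choice of the rises itself favours a low ambient or a high high-CO2 signal. In 129 of the 197 rises (65.5%) the ambient array was below all 4 others, against 19.7% of all counted probe sets. The high-CO2 array lay within their range in 136 (69.0%, against 61.3% of all counted). It lay above the range in 50 (25.4%), a share near the 23.9% of all counted. In 53 of the 114 falls (46.5%, against 25.7%) the ambient array was above the other 4, and in 41 (36.0%, against 14.8%) the high-CO2 array was below them. For the rises the ambient array differed from the mean of the other ambient arrays by a median of -0.91 and the high-CO2 array from the mean of the other high-CO2 arrays by 0.00. For the falls these medians were 0.55 and -0.44. An effect of CO2 in medium light and a departure of the single ambient array cannot be told apart here.

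Medium light was then placed along the light response, with the light response taken from the other 4 arrays. Raised by light were probe sets at least 2-fold higher in high than in low light at both CO2 levels (169 counted), and lowered those at least 2-fold lower (253). The limit for counting, set on the brighter medium-light signal, had left these of 192 raised and 278 lowered probe sets. The sets thus depend in part on the medium-light arrays. The place of a medium-light array is 0 at the low-light mean and 1 at the high-light mean on the log2 scale. For the raised probe sets the median place of the ambient array was 0.43 (quartiles -0.03 and 0.86) and that of the high-CO2 array 0.68 (0.45 and 0.89). For the lowered probe sets the medians were 0.39 for the ambient array (0.17 and 0.61) and 0.70 for the high-CO2 array (0.54 and 0.85). In both sets the high-CO2 array of medium light thus stood nearer to high light than the ambient array did. Of the raised probe sets 124 of 169 were higher in high CO2 and 48 past 2-fold (28.4%, against the 1.59% of all counted), with 2 past 2-fold lower. Of the lowered probe sets 221 of 253 were lower in high CO2 and 39 past 2-fold (15.4%, against 0.923%), with 1 past 2-fold higher. The median difference was 0.39 and -0.48.

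**Figure D3:**
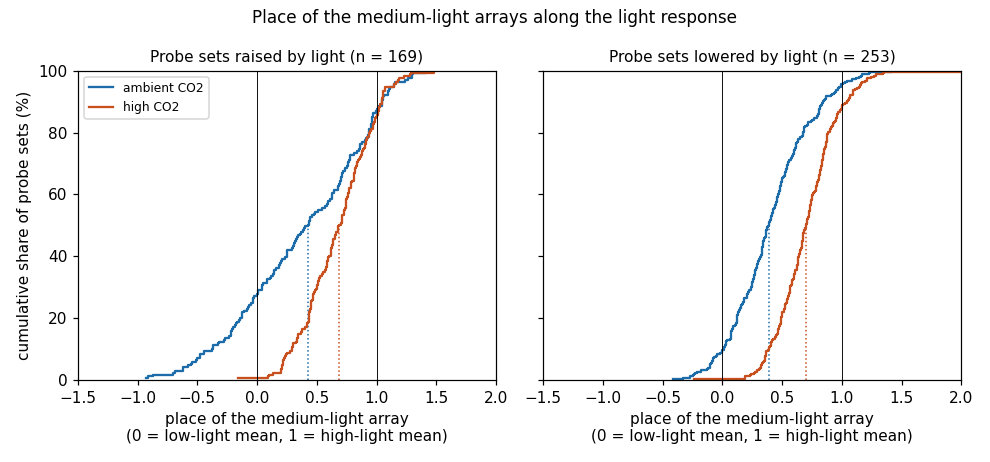
Cumulative share of probe sets (%) against the place of the medium-light array, where 0 is the mean of the low-light and 1 the mean of the high-light arrays, for probe sets raised (left, n = 169) and lowered (right, n = 253) by light. Dotted lines mark the medians, 0.43 in ambient (blue) and 0.68 in high CO2 (orange) on the left, 0.39 and 0.70 on the right; a few places beyond the axis limits are not drawn.

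Seen from the CO2 difference, 48 of the 197 rises (24.4%) were raised by light, against 1.37% of all counted probe sets, and 39 of the 114 falls (34.2%) were lowered by light, against 2.05%. Only 1 rise was lowered and 2 falls were raised by light. Across all counted probe sets the medium-light CO2 difference had a Pearson r of 0.35 (rho 0.26) with the difference between high and low light in ambient CO2, and 0.31 (0.22) with that in high CO2. The light differences share no array with it. With a light response of at least 4-fold, 14 raised probe sets had median places of 0.09 and 0.67, and 36 lowered ones 0.37 and 0.71. With the light response taken from the ambient arrays alone, which leaves out the array with the conflicting entry, the places were 0.17 and 0.51 for 436 raised and 0.40 and 0.66 for 449 lowered probe sets. The order of the arrays was the same in each of these sets.

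Single genes show the range within these sets. LCR69 was at 0.04 of its light response in ambient and 0.91 in high CO2, and AT5G55450 at 0.04 and 0.83. AT3G21670 was at -0.10 and 0.46, and THI2.2, a thionin gene of defence, at 0.08 and 0.69. LCR69, AT5G55450 and AT3G21670 were named for their large medium-light differences, so their wide shifts follow from that choice. The tonoplast sugar carrier gene SWEET2 was at 0.12 and 0.50, and the nitrate transporter family gene AT2G26690 (NPF6.2) at 0.39 and 0.68. In some other genes of the sets the places were closer together or in the opposite order. SPCH, AUR2 and EXO, all raised by light and described below, were at 1.27 and 0.91, 1.06 and 0.79, and 0.43 and 0.34. LHCB4.3, an antenna protein of photosystem II, was at 0.76 in ambient and 0.68 in high CO2, with signals of 462.8 and 399.5 in medium light, 129.8 and 111.1 in low light, and 714.6 and 707.3 in high light. The expansin gene EXPA8, of cell wall loosening, was at 0.46 and 0.50, with 319.3 and 297.3 in medium light, 609.8 and 747.8 in low light, and 149.4 and 114.6 in high light. The auxin-response repressor gene IAA29, lowered by light, was at 0.53 and 0.29, with a CO2 difference of 0.35 against the direction of light.

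The gene groups were taken from 39 lists, of which 154 members were measured under the annotation used and 104 counted. Because most members of each list are not analysed here, each group is given by its few counted genes, beside the median of 0.01 over all counted probe sets. The genes induced by abscisic acid, cold and drought had 4 counted members, all higher in high CO2 in medium light, 2 of them past 2-fold (background 1.59%), with a median of 0.90. COR15A, which encodes a chloroplast protein that protects membranes in freezing, had signals of 440.4 in ambient and 1123.1 in high CO2 in medium light, 1050.0 and 1329.4 in low light, and 2540.3 and 1271.9 in high light. Its difference was 1.35 in medium light (2.55-fold), 0.34 in low and -0.998 in high light. Its neighbour and close relative COR15B had 521.3 and 1086.2, then 1105.4 and 1438.1 in low light and 1785.0 and 1509.5 in high light, with differences of 1.06, 0.38 and -0.24. Cross-hybridisation between these related genes was not tested.

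The dehydrin genes LTI30 and COR47, whose proteins are made under drought and cold, were less than 2-fold higher in medium light. LTI30 had 64.9 and 108.8 in medium light (0.75), 127.2 and 140.7 in low light (0.15), and 217.1 and 96.6 in high light (-1.17). COR47 had 254.4 and 394.9 in medium light (0.63), 584.8 and 1028.0 in low light (0.81), and 770.6 and 380.9 in high light (-1.02), so its difference was larger in low than in medium light. In all 4 genes the medium-light ambient array was the lowest of the 6. Over all counted probe sets it was below the low- and high-light arrays in 19.7%. In high light all 4 genes were lower in high CO2, with a median of -1.01. The high-light value uses the array whose atmosphere entry reads normal.

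**Figure D4:**
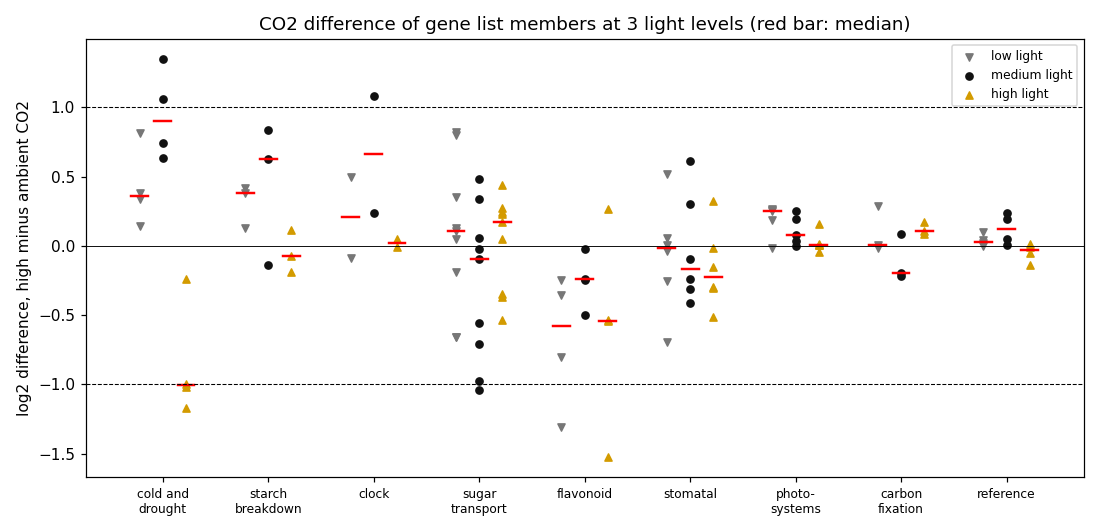
The log2 difference between high and ambient CO2 is shown for the counted members of 9 gene lists in low (grey), medium (black) and high light (amber), 1 point for each gene, with red bars at the medians. Dashed lines mark 2-fold. The cold and drought genes lie between 0.63 and 1.35 in medium light and between -1.17 and -0.24 in high light, while the photosystem, carbon fixation and reference genes lie within 0.30 of 0 at all 3 light levels.

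GI (GIGANTEA), a component of the circadian clock that also promotes flowering, was higher in high CO2 in medium light. Its signal was 188.3 and 398.3 there, 260.8 and 368.5 in low light, and 485.2 and 502.6 in high light. The difference was 1.08 in medium, 0.50 in low and 0.05 in high light, and the ambient medium-light array was again the lowest. The other counted clock gene, TIC, had 237.8 and 280.9 in medium light, a difference of 0.24.

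In starch breakdown no gene was past 2-fold. PWD, which phosphorylates starch so that it can be degraded, had 287.1 and 512.1 in medium light, 329.7 and 430.5 in low light, and 707.9 and 765.9 in high light. The difference was 0.83 in medium, 0.38 in low and 0.11 in high light. DPE1, the plastid disproportionating enzyme, had 212.2 and 327.8 in medium light (0.63), 252.3 and 275.8 in low light, and 426.4 and 405.8 in high light. Both had their lowest signal on the medium-light ambient array and their highest signals in high light. That array was below the low- and high-light arrays in 19.7% of all counted probe sets. AMY1, an alpha-amylase gene, had 57.7 and 52.4 (-0.14). In starch synthesis APL3, a large subunit of ADP-glucose pyrophosphorylase, had 49.6 and 56.2 (0.18) and the branching enzyme gene SBE2.2 475.8 and 383.4 (-0.31).

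Sucrose and sugar transport had 9 counted genes, 1 of them past 2-fold lower (background 0.923%), with a median of -0.09. SWEET17, a fructose carrier of the vacuole membrane, had 299.4 and 145.8 in medium light, 478.5 and 302.5 in low light, and 136.8 and 154.1 in high light. Its difference was -1.04 (2.05-fold lower) in medium light, -0.66 in low and 0.17 in high light. SWEET16, its closest relative in the vacuole membrane, had 71.4 and 43.6 in medium light, 110.9 and 70.3 in low light, and 34.3 and 40.2 in high light, with differences of -0.71, -0.66 and 0.23. SWEET2 had 90.9 and 61.9 in medium light (-0.55), 100.4 and 104.1 in low light, and 42.5 and 33.4 in high light. These 3 vacuolar carriers were each lower in high CO2 in medium light and each had lower signals in high than in low light.

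The carriers of the plasma membrane had other values. SWEET11, which exports sucrose for phloem loading, had 204.5 and 258.1 in medium light (0.34), with 0.82 in low and 0.44 in high light, so that high CO2 was above ambient at each light level. SWEET13 had 35.7 and 61.5 in medium light (0.78) and -0.58 in high light. SWEET1 (-0.02) and SWEET4 (-0.09) were near 0. The vacuolar monosaccharide transporter genes TMT1 and TMT2 had differences of 0.06 and 0.48. ATSPS4F, a sucrose phosphate synthase, had 70.7 and 36.0 in medium light (-0.97) with 19.8 and 34.8 in low light and 40.3 and 41.8 in high light. The SWEET genes were put together as a family after their values were seen.

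In nitrogen transport, 6 genes of the nitrate and peptide transporter family were counted, 5 of them lower in high CO2, with a median of -0.25. AT3G21670 was the 1 member past 2-fold lower (background 0.923%). AT2G26690 (NPF6.2) had 197.4 and 140.6 in medium light (-0.49), 325.0 and 301.5 in low light, and 89.9 and 102.4 in high light. The glucosinolate transporters GTR1 and GTR2 had -0.22 and -0.24.

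The stomatal development list, which the series title concerns, had 7 measured and 6 counted members, none past 2-fold in either direction, with a median of -0.17. In whole tissue fewer cells of a type and less RNA per cell cannot be told apart. SPCH (SPEECHLESS), the factor that starts the stomatal lineage, had 70.1 in ambient and 52.6 in high CO2 in medium light, 32.4 and 5.6 in low light, and 67.7 and 47.4 in high light. Its difference was -0.41 in medium, -0.70 in low and -0.51 in high light, with the low-light value set by the floor. FMA (FAMA), the factor of guard cell identity, had 82.9 and 66.8 in medium light (-0.31), 56.9 and 59.1 in low light, and 80.6 and 79.6 in high light. STOMAGEN, a mesophyll peptide that promotes stomata, had 320.7 and 272.1 (-0.24), against 242.4 and 236.6 in low light and 279.1 and 227.2 in high light.

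SPCH and STOMAGEN were lower in high CO2 at all 3 light levels, and FMA in medium and, by 0.02, in high light (-0.02). Their medium-light differences were inside the central 95% of all counted probe sets. AGL16, a MADS-box factor of the lineage, had 85.4 and 130.9 in medium light (0.62), 102.7 and 102.9 in low light, and 92.5 and 115.6 in high light. IDD16, which restricts the start of the lineage, had 36.4 and 44.8 (0.30), and SOL1 102.6 and 96.0 (-0.10). The guard cell marker genes, of which 3 of 10 were counted, were all lower in high CO2 in medium light, with a median of -0.34. CHX20, a cation exchanger of guard cells, had 45.1 and 25.8 (-0.81), and AT4G14480 (BLUS1), a blue-light signalling kinase of guard cells, 55.6 and 44.0 (-0.34). Both are near the lower limit for counting, and the latter was higher in high CO2 at the other light levels (0.51 and 0.15). CHX20 had -0.64 in low and 0.30 in high light. The remaining marker is FMA, described above, with 0.05 in low light.

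The photosynthesis genes of the nucleus differed little. The 5 counted genes of the photosystems and electron transport lay between 0.00 and 0.25, with ATPC1, a chloroplast ATP synthase subunit, at 3335.6 and 3976.8. The antenna genes LHCB4.1 (0.11) and LHCB4.2 (0.05) were within this range. In carbon fixation RCA was at 0.08, SBPASE at -0.19 and PRK, phosphoribulokinase, at -0.22 with 3027.1 and 2602.9. HPR, hydroxypyruvate reductase of photorespiration, had 2157.2 and 1687.7 (-0.35), with -0.08 in low and -0.05 in high light. The 4 reference genes were between 0.00 and 0.24, with a median of 0.12, and 3 of them had their lowest signal on the medium-light ambient array.

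The plastid-encoded genes, 67 counted of 69 measured, had 33 above and 34 below 0, with a median of 0.00, and 1 gene past 2-fold higher, a share near the background of 1.59%. A run of neighbouring genes is described here, and was chosen after the values were seen. In genome order psbK and psbI, small subunits of photosystem II, had differences of 0.47 and 0.60, and atpA, atpF and atpH, subunits of the ATP synthase, 0.89, 0.58 and 0.73. All but that of atpA lay inside the central range of -0.59 to 0.74 given above for brighter signals of at least 400. The signal of atpA was 2381.7 in ambient and 4409.8 in high CO2 in medium light, 2862.5 and 2872.5 in low light, and 3282.6 and 3853.5 in high light. That of atpH was 1076.9 and 1791.6 in medium light, 1176.6 and 1165.4 in low light, and 1416.0 and 1969.3 in high light. These 5 genes each had their lowest signal on the medium-light ambient array. That array was below the low- and high-light arrays in 8 of the 67 counted plastid genes and in 19.7% of all counted probe sets.

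The run ended at atpI. That ATP synthase gene had 149.1 and 123.6 (-0.27), the ribosomal protein gene rps2 1304.2 and 1273.9 (-0.03), and the RNA polymerase genes rpoC2 631.9 and 375.5 (-0.75) and rpoC1 1265.1 and 1012.6 (-0.32). The genes atpA, atpF, atpH and atpI are neighbours in genome order, and their differences lay on both sides of 0. Which of them share a transcript was not measured, and atpI had the dimmest signals among them. Over all plastid genes 7 had differences of at least 0.45 and 3 of at most -0.45, which leaves 57 between them. The share of all counted probe sets past this limit is not given here, and their differences had an SD of 0.38. These counts are therefore a description only. Of the 7, 5 are the run, and the other genes are the dim petG (20.9 and 47.8, a difference of 1.19) and psbN (87.2 and 138.6, 0.67). The genes of the photosystem cores, psaA (-0.01), psaB (0.12), psbA (-0.20) and psbB (-0.02), and the Rubisco gene rbcL (-0.24) differed less.

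**Figure D5:**
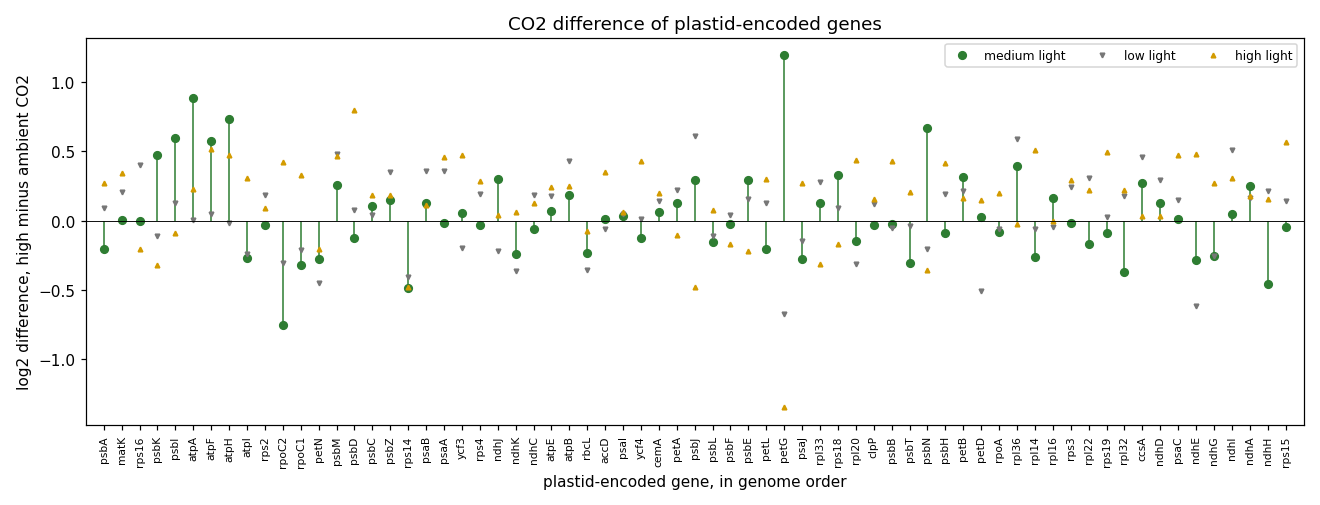
The log2 difference between high and ambient CO2 of the 67 counted plastid-encoded genes is shown in genome order, green circles with stems for medium light, grey for low light and amber for high light. The run from psbK to atpH lies between 0.47 and 0.89 in medium light, and atpI to rpoC1 between -0.75 and -0.03; petG, at 1.19, had signals of 20.9 and 47.8.

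Flavonoids are the red and ultraviolet-absorbing pigments of leaves. All 4 counted genes of anthocyanin and flavonoid synthesis were below 0 in medium light, none past 2-fold, with a median of -0.24, beside -0.58 in low and -0.54 in high light. DFR, dihydroflavonol reductase, had 89.7 and 63.5 (-0.50) in medium light, 47.1 and 36.8 in low light, and 196.6 and 68.3 in high light. CHIL, a chalcone isomerase-like protein, had 158.2 and 133.3 (-0.25), UGT78D1 126.8 and 107.5 (-0.24) and UGT78D2 87.1 and 85.8 (-0.02).

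Among growth genes, 5 of 7 counted in the shade and auxin list were above 0 and none past 2-fold, with a median of 0.35. HAT2, a homeodomain factor of shade responses, had 62.8 and 99.6 in medium light (0.67), 86.8 and 89.8 in low light, and 40.4 and 56.8 in high light. IAA29 had 73.6 and 93.5 (0.35), with 0.27 and 0.31 at the other light levels. XTH16, a xyloglucan endotransglucosylase of the cell wall, had 299.8 and 198.3 (-0.60), and the related genes EXGT-A3 and XTH32 -0.73 and -0.40, so that all 3 counted genes of that family were lower. Of 9 expansins 7 were above 0, with a median of 0.20. The 3 counted genes of cell wall synthesis, GUT2 (0.67), CSLC04 (0.44) and COB (0.19), were all higher, each with its lowest signal on the medium-light ambient array. The same held for 3 of the 4 counted reference genes. Over all counted probe sets that array was below the low- and high-light arrays in 19.7%.

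In the jasmonate and ethylene defence list LCR69 was the 1 of 6 counted genes past 2-fold (background 1.59%). THI2.2 had 179.9 and 103.1 in medium light (-0.80), 240.1 and 157.7 in low light, and 112.0 and 53.0 in high light, so it was lower in high CO2 throughout. The defensin genes PDF1.2 and PDF1.2b had 0.15 and 0.33 in medium light but 3.84 and 4.34 in high light, and LCR68 -0.21. Of the aliphatic glucosinolate genes, BCAT4, a branched-chain aminotransferase, had 158.3 and 174.7 (0.14) in medium light but -2.50 in low light. GSTU20, a glutathione transferase of the same pathway, had 1219.4 and 1065.7 (-0.19), and -1.15 in low light. For these genes the large CO2 differences of the other light levels were not seen in medium light, a contrast of single arrays that was not tested.

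EXO, a gene of brassinosteroid-dependent growth, and STZ (ZAT10), a zinc-finger factor of stress responses, gave the same contrast. EXO had 161.8 and 136.2 in medium light (-0.25) and 1594.5 and 148.9 in high light (-3.42). STZ had 58.6 and 53.0 in medium light (-0.14) and 764.3 and 76.6 in high light (-3.32). In sulfate assimilation APS4, an ATP sulfurylase, had 67.5 and 116.3 (0.78) in medium light, 88.7 and 76.5 in low light, and 131.5 and 140.6 in high light, while APS3 was at -0.20 and SIR, sulfite reductase, at -0.21. The 4 counted cell division genes lay between -0.31 and 0.07, with AUR2, a mitotic kinase, at 86.3 and 69.7. None of 20 UDP-glycosyltransferases, 6 cytochrome P450s, 8 beta-glucosidases, 6 glutathione transferases or 5 histone genes was past 2-fold in medium light, where the share over all counted probe sets is 2.52%, so that few or none would be met among so few genes. Their medians were -0.08, 0.05, 0.05, -0.17 and -0.14.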

How the data were processed

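Per the labels, the extracted molecule was total RNA and the label biotin, with 1 sample on each ATH1 array. The deposited intensity values are linear signals made with MAS5 (version not given), per the submitters' processing notes, and had a 2% trimmed mean of 100 on every array. MAS5 signals are noisy when low, and detection calls were not used here. Signals under 20 were set to 20 and taken to log2, without 64 control probe sets. Of 22746 probe sets, 13513 had 1 gene in the platform annotation and 503 several, 13436 matched the TAIR10.1 gene table, and 8730 are unnamed here. The number of arrays limits the precision. No test was made. Named genes are the 25 highest and 25 lowest differences at a brighter signal of at least 100, up to 4 members of each list or family, and up to 6 probe sets past 2-fold in opposite directions at different light levels. Symbol corrections made after values were seen left out 6 list entries naming other genes. The members and lists were chosen with earlier results of these data known. The scripts (Python 3.11.15, pandas 2.3.3, numpy 2.4.6, statsmodels 0.14.6 for loess) were tested on simulated data. Alternatives were other scalings, floors, filters, thresholds and light sets. Promoter sequences were not analysed here.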

Additional observations from a re-analysis of the deposited data

Results flagged for a closer look

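Of the probe sets past 2-fold in medium light, 8 were past 2-fold in the opposite direction at another light level, 3 of them with 1 gene. All were rises. In low light 2 of the 197 rises were past 2-fold lower (1.0%, against 0.753% of all counted). In high light 6 were (3.05%, against 1.67%). AT3G59350 was higher in high CO2 in medium light (1.31, signals 22.1 and 54.8) and lower in high light (-1.38, 302.7 and 116.4). The plastid cytochrome b6f subunit gene petG had 1.19 (20.9 and 47.8) and -1.35 (171.5 and 67.5). AT1G76360 had 1.13 (1.7 and 43.9, the former below the floor, so the rise is a lower bound) and -1.11 (93.0 and 43.2). All 3 medium-light differences rest on low signals, and with signals under 50 set to 50 they were 0.13, 0.00 and 0.00. The high-light values use the array whose atmosphere entry reads normal. With 1 array for each condition, the difference between light levels was not tested.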

How the results depend on the processing

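The counts of 197 rises and 114 falls depend on low signals and on the threshold. With signals under 50 set to 50, or a brighter signal of at least 100 required, 74 and 47 remained. These settings pick the same probe sets by construction, so they are not separate checks. At 1.5-fold there were 698 and 529, and at 3-fold 39 and 10, thresholds chosen after seeing the data. A floor of 10 and no filter gave the main counts, also by construction, so they are not checks. With the main floor a 2-fold difference already needs a brighter signal at the limit for counting. A probe set at that limit with a dimmer signal under the main floor is past 2-fold with either floor. The higher share of the 311 probe sets was 63.3%, and it was 55.2% after quantile normalization, 54.9% with equal medians and 57.2% after loess. All 114 falls were shared with each of these 3, and 176, 168 and 172 of the 197 rises. For the probe sets raised by light, the median place of the ambient array was 0.0921 with a 4-fold light response and 0.169 with the light response from the ambient arrays alone (the latter added after seeing the data), against 0.43, and the high-CO2 array stayed nearer to high light. Of 265 differences of 53 named genes under 5 alternatives, 260 moved by less than 1.5 times and none changed sign. Of the sugar transport genes 2 were past 2-fold under each of the other scalings. Leaving out the high-light difference gives no value of its own. No paired analysis was possible because the medium-light comparison holds a single pair of arrays; a fit over the 3 light levels would estimate another quantity. Array signal limits the dim genes: 86 of the 311 differences have a dimmer signal at or below the floor.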
